A study of Mus musculus with 4 samples.

Results

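The respiratory chain subunits encoded in the nucleus were followed in a map of H3K27ac in mouse gastrocnemius. H3K27ac is a histone mark, acetylated lysine 27 of histone H3, found at promoters and enhancers in use. The 82 genes were chosen by symbol among the 20582 protein-coding genes of chromosomes 1 to 19 in GENCODE release M21 on mm10: 35 of complex I (Nduf), 4 of complex II (Sdh), 9 of complex III (Uqcr and Cyc1), 17 of complex IV (Cox4 to Cox8) and 17 of complex V (Atp5). The rule uses symbols and no measured value. The study profiled 1 group, the calf muscle of adult female B6CASTF1/J hybrid mice aged 2 months, untreated as far as the labels say, with 2 biological replicates. Each replicate was a pool of 2 tissue samples and had 2 technical libraries, which shared an alignment and are counted once. There is therefore no contrast between conditions and no test between samples, and the spread is read from the lists of acetylated regions that the authors called for each replicate alone.

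The respiratory chain passes electrons from NADH through complex I and from succinate through complex II to ubiquinone, then through complex III and cytochrome c to complex IV, which reduces oxygen. Complexes I, III and IV pump protons across the inner mitochondrial membrane, and complex V, the ATP synthase, lets them flow back to make ATP. A minority of subunits is encoded in mitochondrial DNA and the others in the nucleus, and complex IV in particular has subunits with separate genes for heart and skeletal muscle, for most tissues, or for testis. Gastrocnemius is a mixed muscle rich in fast fibres, which draw much of their ATP from glycolysis.

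The authors deposited 4 region lists, of 84452 regions for the replicated list, 91329 for both replicates pooled, 70953 for replicate 1 and 86937 for replicate 2. Values are from the replicated list unless a replicate is named. The lists hold no read counts, so depth is unknown. The tissue label was checked against marker genes: 8 of 8 skeletal fibre genes had an acetylated region within 1 kb of a start, with a median of 9624 bp covered, while 0 of 5 heart, 0 of 2 liver, 0 of 2 testis and 0 of 2 neuron genes had one. Endothelial markers had one in 4 of 4 genes, fibroblast markers in 3 of 3, macrophage markers in 2 of 4 (Cd68, 1 of these, in replicate 1 and not in replicate 2) and adipocyte markers in 1 of 5 (Cidea, in replicate 2 and not in replicate 1). The tissue thus held acetylated chromatin of vessel and connective tissue cells beside that of fibres, and which cells carry the acetylation at respiratory chain genes was not tested. In a bulk tissue, acetylation in fewer cells and weaker acetylation per cell cannot be told apart.

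Nearly all respiratory chain promoters were acetylated. A region within 1 kb of a start was present for 79 of the 82 genes, 96.3%, against 62.1% of all protein-coding genes. The same 79 genes had one in the list of replicate 1 and in that of replicate 2, where 59.5% of all genes had a region in both. Widening the distance to 5 kb added no gene to the 79, against 65.7% of all genes. At least 1 kb of the 2 kb around a start was covered in 78 of the 82 genes, against 54.4% of all genes. Ndufa8, an accessory subunit of complex I, was the gene with a region but less cover, since its region lay wholly downstream of its start. It missed this rule narrowly, as its region of 1881 bp reached position 36049403, just short of its start at 36049406. The 3 genes with no region in any list were Cox6b2, Cox7b2 and Cox8c, complex IV subunits known from testis.

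These promoters stood out more by strength than by width. The signal value, a measure of strength that the authors deposited for each region and that is compared here only within a list, had a median of 43.4 over the 79 genes with a promoter region, against 27.8 over all 12783 genes with one. It was above the median of all such genes in 72 of the 79, and above their upper quartile of 39.5 in 53 of the 79, or 67.1%. In the single-replicate lists the medians were 35.1 over the respiratory chain genes and 22.5 over all genes in replicate 1, and 43.6 over the respiratory chain genes and 29.3 over all genes in replicate 2. The acetylated length, the base pairs covered within 5 kb to each side of the start, had a median of 2701 bp over the 82 genes, against 1521.5 bp over all protein-coding genes, which include those with no region. Among genes with a promoter region that gap was small, at 2782 bp over the 79 respiratory chain genes and 2609 bp over all, and 42 of the 79 were above 2609 bp. Length and signal were only loosely related, with a Spearman correlation across genes of 0.29 over the 79 and 0.50 over all genes with a region, given as a description since genes are not replicates.

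**Figure D1:**
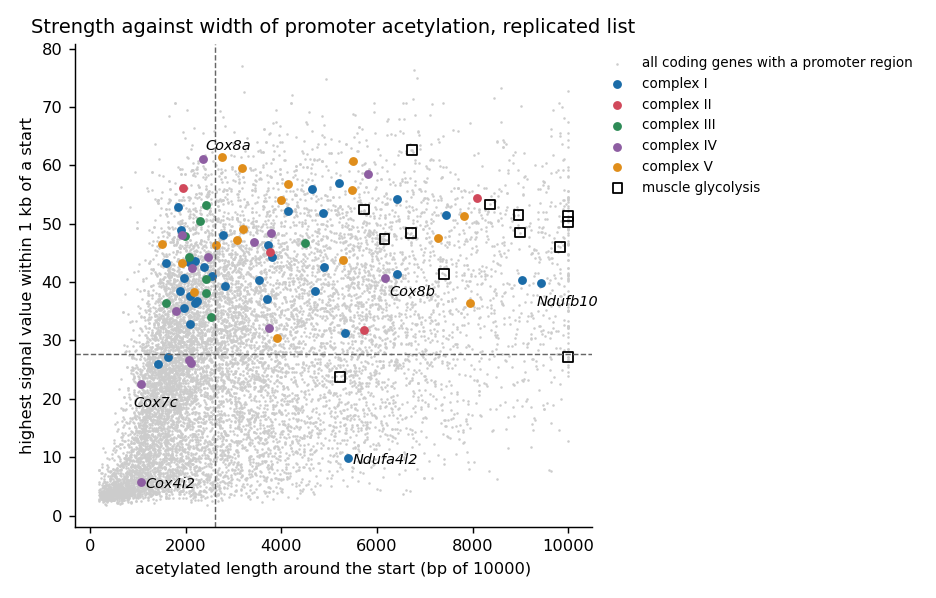
Highest signal value of a region within 1 kb of a start (vertical axis, the authors' value, no unit given) against acetylated length within 5 kb to each side (horizontal axis, bp of 10000) for each gene with a promoter region in the replicated list. Coloured points are the 79 respiratory chain genes by complex, open squares the 13 muscle glycolysis genes, grey points all 12783 genes, and dashed lines the medians of all genes with a region (2609 bp and 27.8); most coloured points lie above the horizontal line and are spread to both sides of the vertical one.

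The summit of the promoter region lay downstream of the nearest start in 73 of 79 genes, 92.4%, against 69.3% of all genes with a promoter region, with a median distance of 166 bp for the respiratory chain genes and 127 bp for all genes. The cover reached further downstream than upstream of the start in 60 of 79 genes, 75.9%, against 68.5% of all genes with a region, with medians of 1603 bp downstream and 1034 bp upstream, while over all of those the medians were 1383 bp downstream and 974 bp upstream. In the bin of 100 bp centred 950 bp past the representative start, the one shared by most transcripts of a gene, 91.6% of the respiratory chain genes were covered, against 63.7% of all genes with a region. At 2950 bp the shares were 21.3% and 21.1%, and at 3950 bp the respiratory chain genes were lower, at 11.4% against 18.5%. The promoter region itself had a median width of 2412 bp, against 2039 bp over all genes with one, and it was the single region within 5 kb in 45 of 79 genes, 56.96%, against 49.6%.

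**Figure D2:**
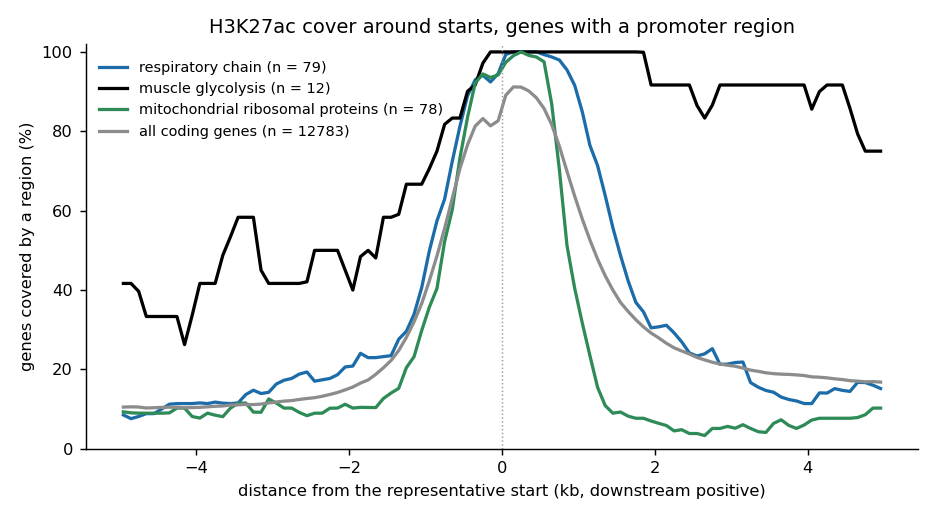
Percentage of genes covered by a region of the replicated list (vertical axis) in bins of 100 bp around the representative start (horizontal axis, kb, downstream positive), for genes with a region within 1 kb of any start: 79 respiratory chain genes, 12 muscle glycolysis genes (Pgk1, on X, is left out), 78 mitochondrial ribosomal protein genes and all 12783 genes. The respiratory chain curve stands above that of all genes over about the first 2 kb downstream, reaching 91.6% against 63.7% at 950 bp. It is close to that curve at 2950 bp and below it at 3950 bp, with 11.4% against 18.5%. The glycolysis curve is still at 91.7% at 2950 bp.

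Complex I takes electrons from NADH. A promoter region was present at all 35 of its genes, whose median length was 2831 bp, with a range of 1421 to 9433 bp. The 7 genes of the catalytic core, which carry the flavin and the iron-sulphur clusters, had a median of 3812 bp and the 26 accessory subunits one of 2607 bp, with Ndufa4 and Ndufa4l2 in neither. Their median signal values were 44.4 for the core and 40.1 for the accessory subunits. The longest was the accessory subunit Ndufb10, at 9433 bp (7680 bp in replicate 1, 9436 bp in replicate 2), spread over 5 regions. It lies 3342 bp from the start of Rpl3l on the other strand, a ribosomal protein gene known from striated muscle, which was covered over all 10000 bp. Ndufa13, an accessory subunit also known as GRIM-19, had 7439 bp in 7 regions, 4949 bp in replicate 1 and 7279 bp in replicate 2. At the short end were the accessory subunits Ndufs5 at 1579 bp (1500 bp in replicate 1, 1597 bp in replicate 2), and Ndufa3 at 1421 bp (1265 bp in replicate 1, 1520 bp in replicate 2). Their strength differed, since the signal value was 43.2 at Ndufs5 and 25.9 at Ndufa3.

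Within the Nduf family, Ndufa4l2 had broad but weak acetylation. This gene is known as a target of the hypoxia-inducible factors. It was covered over 5399 bp (4711 bp in replicate 1, 5898 bp in replicate 2), and its signal value was 9.91, the second lowest of the 79 genes. Its relative Ndufa4, which structures place in complex IV, had 2782 bp (2117 bp in replicate 1, 2595 bp in replicate 2), with a signal value of 48.1. Ndufa4l2 thus had the longer cover and Ndufa4 the stronger region, in both replicates.

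Complex II, succinate dehydrogenase, is shared with the citric acid cycle and is encoded wholly in the nucleus. Its 4 genes had the highest median length of the 5 complexes, 4747.5 bp, over a span of 1935 to 8083 bp. Sdhb, the iron-sulphur subunit, had 8083 bp (6897 bp in replicate 1, 8201 bp in replicate 2), with a signal value of 54.4. Sdhc, a membrane anchor, had 5724 bp (3836 bp in replicate 1, 5902 bp in replicate 2). Sdhd, the other anchor, had 3771 bp (3268 bp in replicate 1, 3241 bp in replicate 2), and starts 98 bp from Timm8b, which encodes a chaperone of mitochondrial import. Sdha, the flavoprotein that oxidises succinate, had the shortest cover at 1935 bp (1889 bp in replicate 1, 2082 bp in replicate 2), and the highest signal value of the 4, at 56.1. With 4 genes the median rests on the middle pair, Sdhc and Sdhd.

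Complex III, the cytochrome bc1 complex, was the most uniform. Each of its 9 genes had a single region within 5 kb, and lengths had a median of 2423 bp with quartiles of 2067 and 2426 bp. Uqcrh, the hinge subunit, was the exception at 4492 bp (4260 bp in replicate 1, 5095 bp in replicate 2), and shares its promoter with Lrrc41, 198 bp away on the other strand. Next came Uqcr11 at 2535 bp and Uqcrq at 2426 bp, both small subunits. The shortest were Cyc1, cytochrome c1, at 1981 bp (1777 bp in replicate 1, 2003 bp in replicate 2), and Uqcrc1, a core subunit, at 1588 bp (1177 bp in replicate 1, 1581 bp in replicate 2). Signal values ranged from 34.1 at Uqcr11 to 53.2 at Uqcrfs1, the Rieske iron-sulphur protein, all above the median of all genes with a region.

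Complex V had 17 genes with a median length of 3901 bp and a median signal value of 47.6, and 14 of the 17 had a signal value above the upper quartile of all genes with a region. The 4 genes of the peripheral stalk, which holds the catalytic head still, had a median of 5516.5 bp. Of these, 2 had 3174 and 3207 bp and 2 had 7826 and 7940 bp, so none lay near that median. The median was 4129 bp over the 5 genes of the F1 head, 3272 bp over the 4 small membrane subunits and 3069 bp over the 3 c ring genes. The longest were 2 stalk genes and 1 head gene. Atp5j had 7940 bp (7167 bp in replicate 1, 7731 bp in replicate 2), in a region that also held the start of Gabpa, 379 bp away on the other strand. Gabpa encodes the DNA-binding subunit of GABP, also called NRF2, a factor known for binding promoters of respiratory chain genes. Atp5h had 7826 bp (6339 bp in replicate 1, 7956 bp in replicate 2), and Atp5d, the delta subunit of the head, had 7279 bp (6118 bp in replicate 1, 7800 bp in replicate 2). The shortest were Atp5e, the epsilon subunit, at 1913 bp (1493 bp in replicate 1, 2138 bp in replicate 2), and Atp5mpl, a small membrane subunit, at 1511 bp (1471 bp in replicate 1, 1485 bp in replicate 2).

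The 5 highest signal values belonged to Atp5g3, Cox8a, Atp5g2, Atp5f1 and Cox5a, of complexes V and IV. The c subunit forms the ring that rotates as protons pass, and the mature protein is the same from its 3 genes, which differ in their targeting sequences. Atp5g3 had the highest signal value of all 82 genes, 61.3, with 52.8 in replicate 1 and 57.7 in replicate 2, and Cox8a came next at 61.1, with 49.5 in replicate 1 and 60.4 in replicate 2. Cox8a was thus above Atp5g3 in replicate 2. Atp5g2 had 60.7, with 51.6 in replicate 1 and 57.5 in replicate 2, and Atp5g1 had 47.2, with 38.6 in replicate 1 and 47.4 in replicate 2. Atp5g2 had the longest cover of the 3, at 5508 bp, against 3069 bp at Atp5g1 and 2759 bp at Atp5g3. The stalk gene Atp5f1 had 59.5, with 49.9 in replicate 1 and 57.4 in replicate 2, and Cox5a had 58.5, with 51.5 in replicate 1 and 54.7 in replicate 2. The promoter of Atp5g3 is printed as one of these strong promoters, from RefSeq on GRCm38.p6 (chr2:73911277-73911576, minus strand), 250 bases before the start and 50 after, 5′ to 3′ along the gene. Capitals mark matches to the ERR element (CAAGGTCA, here on the opposite strand, first base at -52) and to the NF-Y box (CCAAT, first base at -72), with positions counted from the first transcribed base.
Atp5g3: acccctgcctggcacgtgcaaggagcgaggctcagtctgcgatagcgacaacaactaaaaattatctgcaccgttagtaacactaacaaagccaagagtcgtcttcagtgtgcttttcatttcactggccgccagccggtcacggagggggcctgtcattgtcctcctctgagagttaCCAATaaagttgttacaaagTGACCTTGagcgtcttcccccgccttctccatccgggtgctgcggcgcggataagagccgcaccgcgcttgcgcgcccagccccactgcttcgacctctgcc

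Complex IV, cytochrome c oxidase, had the lowest median length, 2104 bp, and the 14 of 17 genes with a promoter region ranged from 1056 to 6174 bp. Leaving out the genes with tissue-restricted forms gave 2119 bp over 10 genes, and adding Ndufa4 also gave 2119 bp, so neither choice moved the complex from the last place. Cox5a, which helps hold the catalytic core, had 5815 bp (3823 bp in replicate 1, 5450 bp in replicate 2). Cox7c, a small subunit, had 1059 bp (1054 bp in replicate 1, 1075 bp in replicate 2), with a signal value of 22.6. Its cover lay downstream of the most upstream of its 3 starts, with the summit at -42 bp from the nearest start. Cox4i2, a form of subunit 4 known from lung and from low oxygen, had the shortest cover of the genes with a region, 1056 bp (747 bp in replicate 1, 660 bp in replicate 2), and the lowest signal value of all 79 genes, 5.67. Its common counterpart Cox4i1 had 3428 bp (2401 bp in replicate 1, 3805 bp in replicate 2), with a signal value of 46.8. Subunit 6b showed the same order, with 0 bp at Cox6b2 in every list, against 2104 bp at Cox6b1, 1668 bp in replicate 1 and 1480 bp in replicate 2.

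**Figure D3:**
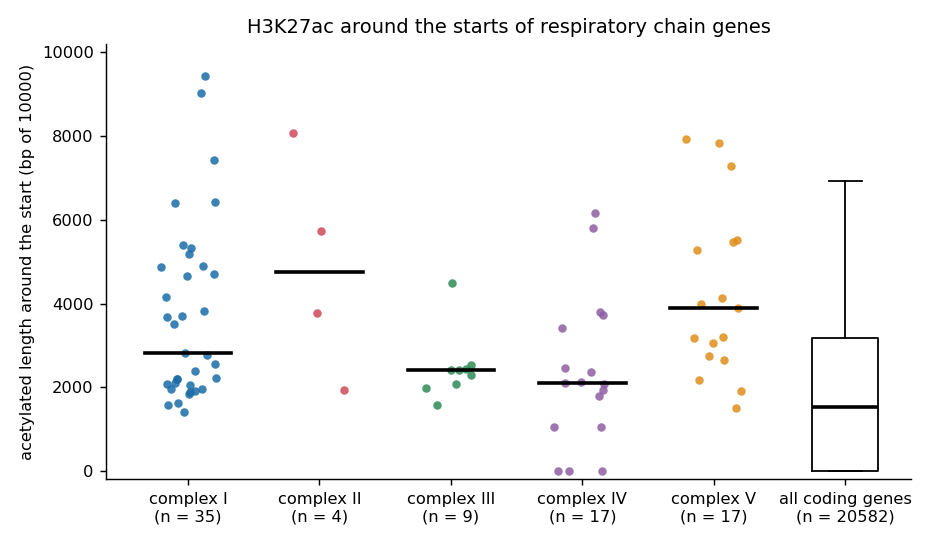
Acetylated length within 5 kb to each side of the start (vertical axis, bp of 10000, replicated list) for each respiratory chain gene, by complex, with bars at the medians, and for all 20582 protein-coding genes as a box of the median and quartiles with whiskers to the 5th and 95th percentiles. Medians run from 4747.5 bp in complex II through 3901 bp in V, 2831 bp in I and 2423 bp in III to 2104 bp in IV, against 1521.5 bp over all genes; the 3 points at 0 are the testis forms of complex IV.

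The order of the complexes by median length, II, V, I, III and IV, was the same in all 4 lists. The medians were 3552, 2978, 2409, 2036 and 1668 bp in replicate 1 and 4571.5, 3620, 2877, 2278 and 2053 bp in replicate 2, in that order of complexes. Within a complex the genes spread over far more than these gaps: complex I spanned 1421 to 9433 bp and complex V 1511 to 7940 bp, so the complexes overlapped widely. The 25 genes whose promoter region held another coding start had a median length of 4001 bp. It was 2424.5 bp over the 54 with a region and no other start in it. A wider region has more room for another start, so this split is not independent of length. The median region widths were 3155 bp with another start and 2119 bp without. How often such sharing occurs over all genes was not counted. Among genes with a region, such sharing was seen in 12 of 35 in complex I and 3 of 4 in II. It was seen in 3 of 9 in III, 1 of 14 in IV and 6 of 17 in V. Whether sharing bears on the order of the complexes was not tested.

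Where complex IV has paired genes, the heart and muscle form had the broader acetylation in all 3 pairs and in every list. Cox6a2 had 3793 bp (2733 bp in replicate 1, 3784 bp in replicate 2), while Cox6a1, the form of most tissues, had 2467 bp (2284 bp in replicate 1, 2535 bp in replicate 2). Cox7a1 had 3735 bp (3248 bp in replicate 1, 4978 bp in replicate 2), while Cox7a2 had 2077 bp (1889 bp in replicate 1, 2053 bp in replicate 2). Cox8b had 6174 bp (5902 bp in replicate 1, 6162 bp in replicate 2), while Cox8a had 2357 bp (1499 bp in replicate 1, 3185 bp in replicate 2). In each pair the lower replicate of the muscle form was above the higher replicate of its counterpart. The differences, muscle form minus counterpart, were 1326 bp for Cox6a (449 bp in replicate 1 and 1249 bp in replicate 2), 1658 bp for Cox7a (1359 and 2925 bp) and 3817 bp for Cox8 (4403 and 2977 bp). With 2 replicates and 1 group no test was made. The Cox6a order depended on the window: counted within 10 kb to each side it turned to -404 bp, because that span takes in a region 6986 to 8715 bp downstream of the Cox6a1 start, where Triap1 and Gatc start. Cox7a2l, a relative that joins complexes III and IV into supercomplexes, had 2134 bp, and Cox8c, the testis form, 0 bp.

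Strength did not follow the same order. The signal value was 48.4 at Cox6a2 and 44.3 at Cox6a1, and 32.1 at Cox7a1 and 26.7 at Cox7a2, higher for the muscle form in both replicates, although by only 0.55 for Cox7a in replicate 1. At Cox8b it was 40.7, with 31.9 in replicate 1 and 40.8 in replicate 2, against 61.1 at Cox8a, with 49.5 in replicate 1 and 60.4 in replicate 2. Cox8a thus had the stronger and narrower promoter region of that pair, and Cox8b the weaker and broader one. The genes of the muscle forms are short, 953 bp for Cox6a2, 1935 bp for Cox7a1 and 1502 bp for Cox8b, and each was covered from end to end in the replicated list. Of all 82 genes only these 3 and Ndufa4l2 were wholly covered, 4 genes or 4.88%, against 1.47% of all protein-coding genes. Cox8b lay inside a single region, chr7:140897247-140903420, that ran from -2974 to 3199 bp relative to its start, past the gene's end and over the end of Psmd13, whose nearest start is 17974 bp away. No other coding start lay in that region. The region at Cox8a, chr19:7215375-7217731, began at -115 bp and covered 91.0% of the gene.

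**Figure D4:**
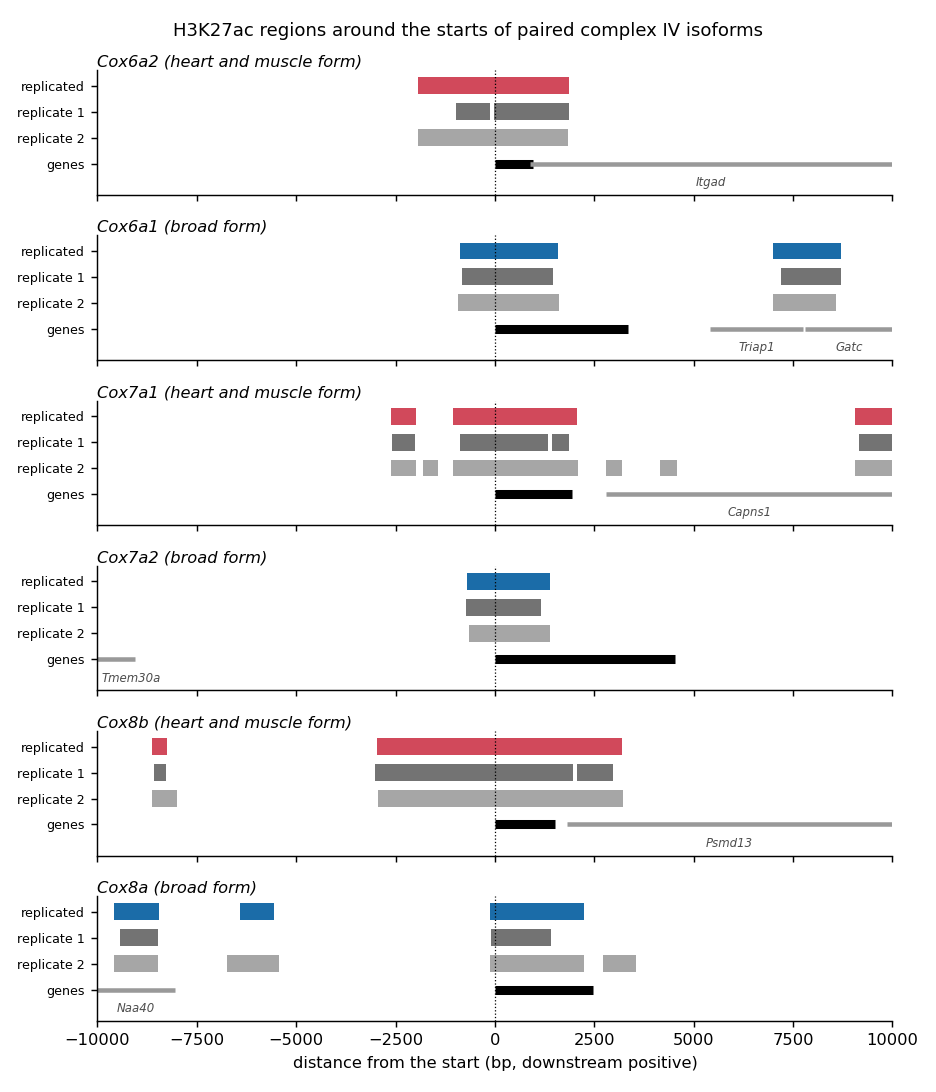
Regions of H3K27ac (boxes) in the replicated list, replicate 1 and replicate 2 within 10 kb of the start of 6 complex IV genes, with the gene in black and neighbouring coding genes in grey (horizontal axis, bp from the start, downstream positive). Each heart and muscle form stands above its counterpart and is covered from end to end in the replicated list; Cox8b has 1 region from -2974 to 3199 bp, and a separate region at Cox6a1 lies 6986 to 8715 bp downstream, at the starts of Triap1 and Gatc.

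The promoter sequences of the Cox7a and Cox8 pairs differ in CpG content. They are shown with that of Cox6a1 from RefSeq on GRCm38.p6, each 250 bases before the start and 50 after, 5′ to 3′ along the gene. Cox6a2 has no entry in the RefSeq promoter table, so the Cox6a pair was not compared. Capitals mark matches to the motifs searched, and positions count from the first transcribed base. Cox7a1 (chr7:30183921-30184220, plus strand) holds the NF-Y box, CCAAT on the opposite strand, at -137 and -74. Cox7a2 (chr9:79759804-79760103, minus strand) holds the Sp1 box GGGCGG at -44. Cox8b (chr7:140900397-140900696, minus strand) holds the myogenic E-box CAGCTG at -19 and 17 and the letters TATAAA at 5. Cox8a (chr19:7217567-7217866, minus strand) holds the ETS element CCGGAAG on the opposite strand at -5 and 33 and an NF-Y box at -171. Cox6a1 (chr5:115348909-115349208, minus strand) holds overlapping matches on both strands to the NRF1 core GCATGCGC from -162, Sp1 boxes at -139 and -44, an NF-Y box at -74 and an ETS element at -16. The RefSeq starts differ from the GENCODE starts by 27 bp at Cox7a1, 25 bp at Cox7a2 and 23 bp at Cox6a1, and coincide at the other two.
Cox7a1: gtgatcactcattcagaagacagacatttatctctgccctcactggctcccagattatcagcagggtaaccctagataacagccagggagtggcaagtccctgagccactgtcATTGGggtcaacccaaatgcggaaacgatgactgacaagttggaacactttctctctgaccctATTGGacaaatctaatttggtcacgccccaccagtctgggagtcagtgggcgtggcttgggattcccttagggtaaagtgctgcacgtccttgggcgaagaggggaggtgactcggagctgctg
Cox7a2: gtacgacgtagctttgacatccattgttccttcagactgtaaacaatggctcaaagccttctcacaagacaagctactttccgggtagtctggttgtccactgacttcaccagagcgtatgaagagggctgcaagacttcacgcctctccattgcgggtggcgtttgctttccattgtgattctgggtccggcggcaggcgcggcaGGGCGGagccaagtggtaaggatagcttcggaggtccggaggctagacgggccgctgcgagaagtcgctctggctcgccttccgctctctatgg
Cox8b: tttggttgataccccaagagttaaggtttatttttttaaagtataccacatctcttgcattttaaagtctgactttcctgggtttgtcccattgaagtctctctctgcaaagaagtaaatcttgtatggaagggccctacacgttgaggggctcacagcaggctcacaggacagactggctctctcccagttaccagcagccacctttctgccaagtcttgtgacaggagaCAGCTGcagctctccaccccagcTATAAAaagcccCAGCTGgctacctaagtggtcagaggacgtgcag
Cox8a: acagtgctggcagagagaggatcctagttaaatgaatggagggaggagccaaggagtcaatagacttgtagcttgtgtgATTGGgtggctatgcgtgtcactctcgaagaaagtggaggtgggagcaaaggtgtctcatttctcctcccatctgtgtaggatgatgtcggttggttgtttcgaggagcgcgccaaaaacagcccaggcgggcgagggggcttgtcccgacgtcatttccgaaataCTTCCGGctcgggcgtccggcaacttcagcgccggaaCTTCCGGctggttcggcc
Cox6a1: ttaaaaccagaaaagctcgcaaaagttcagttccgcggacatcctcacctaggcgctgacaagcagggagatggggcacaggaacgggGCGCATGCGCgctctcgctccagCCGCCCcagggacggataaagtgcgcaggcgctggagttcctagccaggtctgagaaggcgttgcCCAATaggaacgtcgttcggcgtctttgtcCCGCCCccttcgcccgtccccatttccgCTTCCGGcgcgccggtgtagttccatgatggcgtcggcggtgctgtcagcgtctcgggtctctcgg

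In these 300 bases Cox7a1 has 7 CpG, against 20 in Cox7a2, and Cox8b has 2, against 19 in Cox8a; Cox6a1 has 32. The ratio of observed to expected CpG is 0.333 in Cox7a1 against 0.833 in Cox7a2, and 0.115 in Cox8b against 0.842 in Cox8a. Both muscle forms shown are thus poor in CpG and both counterparts rich in it, although all 4 had an acetylated promoter region.

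Across the group, 65 genes have an entry in the RefSeq promoter table, and their sequences were read at the GENCODE start, where the median was 17 CpG per 300 bp. The median was 13 over all 16001 genes with an entry and 20 over the 10133 of those with a promoter region. The ratio of observed to expected CpG had a median of 0.779 over the 65 genes. It was 0.586 over all genes and 0.750 over those with a promoter region. The exact letters of the NRF1, ERR and CREB elements were in few promoters, but in a larger share than over all genes. Sites with other letters were not counted. The NRF1 core GCATGCGC was in 8 of 65 promoters, 12.3%, against 3.76% of all genes and 5.38% of genes with a promoter region. They were those of Ndufa6, Ndufa11, Sdhb, Uqcr11, Cox6a1, Atp5g2, Atp5k and Atp5l. The ERR element CAAGGTCA was in 4, those of Ndufs5, Sdhd, Atp5g3 and Atp5l, or 6.15%, against 1.46% of all genes and 1.13% of genes with a region. The CREB site TGACGTCA was in 5, 7.69%, against 2.53% and 3.39%. The ETS element CCGGAAG, which GABP binds, was in 11, 16.9%, a share above the 11.9% of all genes and close to the 17.2% of genes with a region. The Sp1 box GGGCGG was in 24 (36.9%), a lower share than the 46.3% of all genes and the 62.3% of genes with a region. The YY1 site ATGGCGGC was in 2 (3.08% against 2.92% and 4.37%) and the NF-Y box CCAAT in 28 (43.1% against 38.7% and 38.2%). The letters TATAAA were in 8 (12.3%), against 12.5% of all genes and 7.35% of genes with a region. The E-box CAGCTG was in 9 (13.8% against 15.3% and 15.2%) and the MEF2 consensus in 0 (against 2.77% and 1.88%). Both strands were searched for exact letters, and a MEF2 match can contain TATAAA. A match is a description of the letters and shows no binding.

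Respiratory chain genes often started close to a gene on the other strand. A protein-coding start on the other strand lay within 1 kb of a start in 25 of 82 genes, 30.5%, against 10.8% of all protein-coding genes. The latter include genes with no region. Whether the genes of a pair pointed apart or overlapped was not recorded. The count was 12 of 35 in complex I, 3 of 4 in II, 3 of 9 in III, 1 of 17 in IV and 6 of 17 in V. The closest were Ndufs1, the largest core subunit of complex I, 3 bp from the elongation factor gene Eef1b2, the accessory subunit Ndufa7, 10 bp from the ribosomal protein gene Rps28, and the accessory subunit Ndufb9, 26 bp from Tatdn1. Their acetylated lengths were 2545, 4896 and 6413 bp. Where a region holds the starts of both genes, its acetylation cannot be given to one of them.

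Other genes of mitochondrial energy supply were acetylated about as often but less strongly. Each of the 45 assembly factors, which help build the complexes, had a promoter region, and their medians were 2242 bp in length and 33.2 in signal value. The longest were Foxred1, for complex I, at 8385 bp, and Cox11, for copper delivery to complex IV, at 7883 bp. All 18 genes of the citric acid cycle and pyruvate dehydrogenase had one, with medians of 3108.5 bp and 39.4, led by Cs, citrate synthase, at 7682 bp, and Ogdh, of the 2-oxoglutarate dehydrogenase complex, at 7612 bp. Of 9 electron carriers and subunits that the symbol rule leaves out, 8 had one, with medians of 2500 bp over the 9 and 33.3 over the 8. Etfb and Etfa, the subunits of the electron transfer flavoprotein, were longest at 5648 and 5495 bp, and Cyct, the testis cytochrome c, had none in any list.

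By their medians, the respiratory chain genes had longer cover and stronger regions than ribosomal protein genes, and shorter cover than the genes of muscle glycolysis. Mitochondrial ribosomal protein genes, of which 78 of 78 had a region at the promoter, had medians of 1762.5 bp and a signal value of 32.9. Cytosolic ribosomal protein genes, 79 of 88, had 2387.5 bp and 34.4. That list was made by symbol, and its entries without a region include copies whose symbols carry -ps, such as Rpl9-ps1. Among its genes with a region the median was 2550 bp, against 2782 bp over the respiratory chain genes with one. Muscle glycolysis genes, 13 of 13, had 8369 bp and 48.5. Their shortest, at 5235 bp, was longer than the upper quartile of the respiratory chain genes, 4686 bp. The glycolysis list was chosen gene by gene and not by a symbol rule. Its longest genes reached 10000 bp, the most the measure allows. The signal medians of the respiratory chain genes, 43.4, and of glycolysis, 48.5, were closer together than their lengths, 2701 bp and 8369 bp. These differences between lists were not tested.

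Replicate 2 had the longer cover for most genes. Of the 82 genes, 71 were longer in replicate 2, 8 in replicate 1, and the 3 testis forms were equal at 0. The median difference, replicate 2 minus replicate 1, was 467.5 bp and the highest 2330 bp, at Ndufa13, against a median of 397 bp over all genes with a promoter region. Over all protein-coding genes 12190 were longer in replicate 2 and 1361 in replicate 1, and the list of replicate 2 covers 117.8 Mb, against 85.1 Mb for replicate 1. After Ndufa13, the largest differences were at Sdhc, 3836 bp in replicate 1 and 5902 bp in replicate 2, and at Atp5c1, the gamma subunit of the F1 head, 3017 bp in replicate 1 and 4951 bp in replicate 2. The order of the genes was alike in both, with a Spearman correlation across the 82 genes of 0.95, given as a description.

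**Figure D5:**
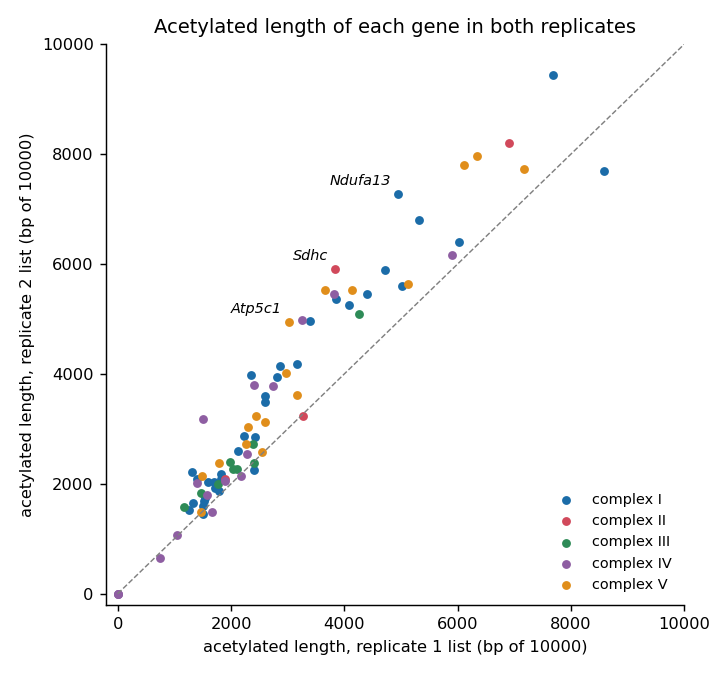
Acetylated length of each of the 82 respiratory chain genes in the list of replicate 1 (horizontal axis, bp of 10000) and of replicate 2 (vertical axis, bp of 10000), coloured by complex, with the line of equal length dashed. 71 genes lie above the line; Ndufa13, Sdhc and Atp5c1 are farthest above it.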

How the data were processed

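H3K27ac was mapped by chromatin immunoprecipitation and sequencing. The authors deposited 4 region lists on mm10 with a signal value and −log10 p-values and q-values for each region. Per the file headers and deposited descriptions, 1 list comes from each replicate, 1 from both pooled and 1 is called replicated. The aligner, caller and thresholds, and the baseline of the signal, were not given in the sources used here, so signal was compared only within a list, and list length and width depend on depth and thresholds that are unknown. The control library was not analysed here.

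Starts of protein-coding transcripts came from GENCODE release M21, leaving out 143 entries known only as readthrough transcripts, 1 of them named Atp5o. A promoter region lay within 1000 bp of any start. Acetylated length was summed within 5000 bp to each side of the start with the largest value. Medians and counts stand beside those of all genes, since genes are not replicates. Motifs were searched as exact letters in 300 bp with RefSeq entries for 65 genes. The genes named are those without a region, the 3 longest and 2 shortest per complex, the isoform families, the 5 highest signals, the 3 largest replicate differences, the 3 closest opposite starts and the 2 longest per pathway list. Genes outside this rule (Ndufa8, Uqcrfs1, the carriers of the NRF1 and ERR motifs, and neighbours) were named after their values were seen. Not every gene this rule names is reported here. The members and lists were chosen with earlier results of these data known. The alternatives were other windows, the pooled and single-replicate lists, a stricter q-value and other motif windows. Scripts were checked on simulated data and used Python 3.11.15, pandas 2.3.3, numpy 2.4.6, scipy 1.17.1, pysam 0.24.0 and matplotlib 3.10.9.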

Additional observations from a re-analysis of the deposited data

How the results depend on the processing

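Of 101 recomputed values in the unit of their result, 77 stayed within the spread between replicates, or within 1.5 times for counts, 23 moved further and 1 changed direction, and 9 more set signal in place of length. With either replicate alone, the median acetylated length ranged from 2366 to 2794 bp over all members, 2409 to 2877 bp in complex I, 3552 to 4571.5 bp in II, 2036 to 2278 bp in III, 1668 to 2053 bp in IV and 2978 to 3620 bp in V. The Cox6a difference then ranged from 449 to 1249 bp, the Cox7a difference from 1359 to 2925 bp, and the median promoter signal from 35.1 to 43.6. Windows of 10 kb to each side gave 3952 bp for the members, 4402 bp for I, 6775 bp for II and 5343 bp for V, a Cox8 difference of 2207 bp, and turned the Cox6a difference to -404 bp. Windows of 2.5 kb gave 3860.5 bp for II, 3339 bp for V and 2643 bp for the Cox8 difference. With the highest signal within 5 kb in place of length, the median was 43.3 for the members. By complex it was 41.3 for I, 49.7 for II, 44.4 for III, 35.0 for IV and 49.1 for V, which puts III above I. The values for the members and for IV count the 3 genes with no region as 0. Among genes with a promoter region, the median signal within 1 kb was 41.6 in IV and 41.1 in I. The Cox6a difference in signal was 4.06 and the Cox7a difference 5.44. The Cox8 difference turned to -20.4, since Cox8a has the stronger region. From 500 bp before to 100 bp after the start, ETS matched in 17 promoters (26.2%, against 15.1% of all genes and 21.7% of genes with a region), ERR in 7 (10.8% against 3.37% and 3.0%), YY1 in 5 (7.69% against 4.52% and 6.70%), TATAAA in 13 (20.0% against 25.05% and 17.0%) and MEF2 in 1 (1.54% against 6.83% and 4.89%), and at the most acetylated start MEF2 matched in 1. No paired analysis was possible because there is 1 group. Depth is unknown, so a gene without a region is one where none was called.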
